A study of Mus musculus with 111 samples.

Results

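The period genes *Per1*, *Per2* and *Per3* and the cryptochrome genes *Cry1* and *Cry2* were followed over the day in the tuberomammillary nucleus (TMN) of the mouse, the hypothalamic region that holds the histamine neurons of the brain. These 5 genes were chosen by name, as the members of 2 gene families, out of 54087 gene names counted in every library. The question put to them was whether their daily rhythm in the TMN differs when an H3.3 that cannot carry a monoamine at glutamine 5 is expressed there.

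All mice were C57BL/6 by the labels and C57BL/6J by the methods of the study, of both sexes and 8 to 10 weeks old when bought, with sex not given per sample, and an adeno-associated virus (AAV) was placed in the TMN 21 days before collection. The viral cargo was either GFP by itself, unmutated histone H3.3, or an H3.3 with glutamine 5 replaced by alanine (Q5A), a form used as a dominant negative against H3 monoaminylation. Every mouse therefore carried a GFP-marked virus, and endogenous H3 was present in all groups. Brains were collected at zeitgeber time (ZT) 0, 4, 8, 12, 16 and 20, where ZT0 is lights on and ZT12 is lights off, GFP-lit tissue was cut out, and each library came from 1 animal. After 1 repeated library was merged there were 32 GFP, 39 H3.3 and 39 Q5A libraries, with 4 to 8 in each of 18 groups of virus and ZT. The GFP and H3.3 libraries, 71 in all, were pooled as controls. Wild-type tissue without a virus was not analysed here.

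The proteins of these genes form the negative arm of the circadian clock. CLOCK and BMAL1 bind E-boxes and switch on the *Per* and *Cry* genes, PER and CRY proteins gather in the cytoplasm, return to the nucleus and shut off CLOCK and BMAL1, and the cycle begins again as they are degraded. PER1 and PER2 are core scaffolds of that repressor, PER3 is less needed for the rhythm itself, and CRY1 and CRY2 are the direct repressors. In most tissues of nocturnal animals *Per* transcripts peak around dusk, and *Cry1* follows with a delay. *Per1* and *Per2* also respond to light, stress hormones and neuronal activity.

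Every member has its own place in the genome (build GRCm38, GENCODE M21). *Per1* lies on the plus strand at chr11:69095217-69109960. *Per2* lies on the minus strand at chr1:91415982-91459324. *Per3* lies on the minus strand at chr4:151003652-151044665, inside the span of *Camta1* on the same strand, with 0 bp of shared exon. *Cry1* lies on the minus strand at chr10:85131700-85185064. *Cry2* lies on the minus strand at chr2:92403646-92434043. On the other strand, 295 bp of its exons are also covered by exons of the non-coding gene D930015M05Rik. Reads of this annotated antisense gene could enter the *Cry2* row. No annotated gene overlaps the other 4 members on the opposite strand. This does not exclude opposite-strand reads in their rows, since transcripts without an annotation were not examined.

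Promoter sequences are shown because the members are textbook targets of E-box and D-box factors. *Per1* and *Cry1*, the members called in the pooled control rhythm tests below, each hold an E-box, which was also a reason to show them. Whether the motif has a part in these rhythms was not tested. The E-box CACGTG reads the same on both strands. The D-boxes TTATGTAA and TTATGCAA, bound by DBP, TEF and HLF or by NFIL3, were searched on both strands, and neither overlaps the E-box. Motifs are in capitals in the 250 bases before the RefSeq start site, read 5′ to 3′ along the gene (GRCm38.p6).
Per1, chr11:69098699-69098948, plus strand: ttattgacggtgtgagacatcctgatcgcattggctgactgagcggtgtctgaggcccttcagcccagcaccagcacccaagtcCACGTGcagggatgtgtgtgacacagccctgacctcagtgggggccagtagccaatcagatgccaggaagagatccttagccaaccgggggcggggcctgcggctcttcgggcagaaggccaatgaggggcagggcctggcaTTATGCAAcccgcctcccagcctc
Cry1, chr10:85185055-85185304, minus strand: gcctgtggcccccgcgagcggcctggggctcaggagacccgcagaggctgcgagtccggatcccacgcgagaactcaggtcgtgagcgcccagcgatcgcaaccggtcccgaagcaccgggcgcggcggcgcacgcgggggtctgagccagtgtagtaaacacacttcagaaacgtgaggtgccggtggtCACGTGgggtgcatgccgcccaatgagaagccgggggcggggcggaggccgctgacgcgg
Per3, chr4:151044666-151044915, minus strand: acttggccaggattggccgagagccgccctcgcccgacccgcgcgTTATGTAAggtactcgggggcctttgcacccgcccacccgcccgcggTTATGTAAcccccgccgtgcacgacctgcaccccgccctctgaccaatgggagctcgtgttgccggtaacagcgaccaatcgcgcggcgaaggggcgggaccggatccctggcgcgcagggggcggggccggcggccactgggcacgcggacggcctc

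*Per1* held the E-box from position -166 and a D-box from position -24 of this start site, *Cry1* an E-box from position -60, and *Per3* held D-boxes from positions -205 and -158. The other annotated *Per1* start site and the *Cry2* promoter had neither motif in this window, and *Per2* was not in the table. Of 32851 mouse promoters, each read over 300 bases from 250 before to 50 after the start, 7.15% held the E-box, 0.938% the D-box TTATGTAA and 0.743% the D-box TTATGCAA. A match is a run of letters and not evidence of binding in these cells.

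The libraries were shallow for these genes, with 673306 to 3375352 reads in gene rows per library (median 1474422.5). These made up 3.49% to 5.63% of the reads placed uniquely, so the members' values are a small part of the reads sequenced. Reads had been counted on 1 strand only, and which strand the counted reads stand for was not tested for any gene. The values may therefore not measure the own transcripts of the members, of the marker genes or of the other genes named here. Over all 110 libraries the median was 12 reads for *Per1*, 6.5 for *Per2*, 9 for *Per3*, 4 for *Cry1* and 34 for *Cry2*. *Cry1* had no read in 6 libraries, *Per2* in 4 and *Per3* in 2, while *Per1* and *Cry2* had reads in every library. *Hdc*, the histamine-synthesizing enzyme that defines these neurons, had a median of only 4 reads and none in 11 libraries, whereas *Slc18a2*, their vesicular monoamine transporter, had a median of 90. The other listed markers of these neurons were low, with medians of 4 for *Lhx6* (0 in 15 libraries), 6 for *Maob* and 16 for *Hrh3*. The summed level of these markers given below therefore rests largely on *Slc18a2*. Of the markers of the suprachiasmatic nucleus, the central clock, *Vip* was at 0 in 82 libraries and *Six6* in 74, while *Lhx1* had a median of 15 reads and was at 0 in 3, and *Rgs16* had a median of 4 and was at 0 in 6. In 4 libraries a single row stood far above the same row in the other libraries, by limits chosen after the values were seen. RP23-355L10.3 had 7188, 9248 and 12106 reads in GFP ZT12, H3.3 ZT12 and Q5A ZT20 libraries of cohort 1, against at most 985 elsewhere, and Platr9 had 986 reads in a Q5A ZT16 library of cohort 1, against at most 55. Results that change without these 4 libraries are given both ways.

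Values below are normalised counts, that is reads divided by the library's size factor. Compared per kilobase of exon, *Cry2* had the highest level, 5.38 ± 1.35 normalised counts per kb (SD, n = 110), followed by *Per1* at 2.12 ± 0.961, *Cry1* at 1.28 ± 0.907, *Per2* at 1.18 ± 0.649 and *Per3* at 0.880 ± 0.445. *Cry2* stood above *Per1* by more than either SD, and every other neighbouring pair in this order differed by less than its SDs.

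*Per1*, the immediate light- and activity-responsive member, was the most clearly rhythmic of the 5 in controls. Its normalised count was 7.51 ± 4.31 (SD, n = 9) at ZT0 and 17 ± 5.81 (SD, n = 13) at ZT12, a ratio of 2.26. The lowest, median and highest control libraries were 2.95, 5.87 and 14.7 at ZT0, 2.2, 7.55 and 14.6 at ZT4, and 1.18, 8.62 and 16.3 at ZT8. After lights off they were 7.10, 17.2 and 25.9 at ZT12, 4.37, 14.5 and 23.3 at ZT16, and 4.73, 15.0 and 18.2 at ZT20. The medians of the dark-phase groups were all above those of the light-phase groups, but single libraries overlapped between every pair of these times. In GFP alone ZT0 and ZT12 did not overlap, since the ZT0 libraries were at 3.49, 3.77, 5.60 and 5.87, and the ZT12 libraries ran from 15.7 to 25.9 with a median of 21.1. In H3.3 alone the ZT0 libraries were at 2.95, 7.93, 10.1, 13.2 and 14.7 and overlapped the ZT12 libraries, which ran from 7.10 to 22.6 with a median of 13.4.

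With Q5A the *Per1* means came in a different order over the day. The rhythm difference between the sets, tested below, did not pass after adjustment over all genes. The lowest, median and highest libraries were 8.36, 11.4 and 12.9 at ZT0, 4.65, 17.2 and 21.6 at ZT4, and 4.16, 11.9 and 15.5 at ZT8. They were 9.05, 16.5 and 24.9 at ZT12, 6.71, 13 and 16.7 at ZT16, and 5.64, 8.78 and 14.1 at ZT20. The means at ZT4 and ZT12 were nearly equal, 15.1 ± 6.21 (SD, n = 7) and 15.2 ± 5.68 (SD, n = 7), and the lowest mean was at ZT20, 9.0 ± 3.11 (SD, n = 6), rather than at ZT0.

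*Per2*, the other core scaffold, had its highest control mean at ZT16, 9.68 ± 4.05 (SD, n = 14), and its lowest at ZT0, 3.69 ± 3.21 (SD, n = 9). The lowest, median and highest control libraries were 0, 3.15 and 9.81 at ZT0, against 2.91, 10.003 and 17.7 at ZT16, so the groups overlapped. In GFP the ZT0 libraries were at 0, 0, 5.87 and 9.81 and the ZT20 libraries at 0, 1.07, 2.41, 3.64 and 13.5, whereas the ZT16 libraries ran from 7.97 to 13. In Q5A the means lay between 5.90 ± 2.13 (SD, n = 6) at ZT0 and 8.48 ± 3.08 (SD, n = 6) at ZT20, a ratio of 1.44 against 2.63 in controls.

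*Per3* had its 2 highest control means at ZT12, 10.2 ± 4.39 (SD, n = 13), and ZT16, 10.2 ± 5.74 (SD, n = 14), and its lowest at ZT20, 6.41 ± 2.63 (SD, n = 11). Control libraries ran from 3.3 to 23.6 at ZT16 and from 2.43 to 12.5 at ZT20, with medians of 9.0 and 6.04. In Q5A the means ran from 7.64 ± 2.25 (SD, n = 6) at ZT20 to 10.1 ± 4.58 (SD, n = 7) at ZT12. In both sets the order of times was set by differences smaller than the spread between animals.

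*Cry1*, the repressor that follows the *Per* genes, was the member with the fewest reads and, in pooled controls, the highest ratio of highest to lowest mean, while in GFP alone that ratio was 4.47 for *Per1* and 4.2 for *Cry1*. Its control mean was 1.97 ± 1.11 (SD, n = 9) at ZT0, 2.42 ± 1.34 (SD, n = 11) at ZT4 and 3.43 ± 1.86 (SD, n = 13) at ZT8. It was 5.28 ± 3.57 (SD, n = 13) at ZT12, 5.60 ± 3.53 (SD, n = 14) at ZT16 and 5.75 ± 4.36 (SD, n = 11) at ZT20, 2.91 times the ZT0 mean. Libraries at 0 occurred at ZT0, ZT4, ZT12 and ZT20, so that the ZT0 and ZT20 groups, at 0 to 3.6 and 0 to 13.1, overlapped. In Q5A the highest mean was at ZT12, 7.27 ± 3.00 (SD, n = 7), and the lowest followed directly at ZT16, 2.90 ± 1.91 (SD, n = 7), with libraries from 2.38 to 11.5 and from 0 to 6.20.

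*Cry2* had the highest counts and the lowest ratio of highest to lowest mean in controls, in a row that reads of an annotated antisense gene could enter. As for the other members, which strand the counted reads stand for was not tested. Its control means lay between 28.4 ± 10.2 (SD, n = 11) at ZT4 and 37.0 ± 8.99 (SD, n = 13) at ZT12, a ratio of 1.3, and its Q5A means between 33.1 ± 6.64 (SD, n = 7) at ZT16 and 39.7 ± 11.9 (SD, n = 6) at ZT8, a ratio of 1.2. Libraries overlapped between these times in both sets, at 17.8 to 48.0 and 21.5 to 53.4 in controls.

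When the 6 times were put in order of their means, no neighbouring pair differed by more than the smaller of its SDs in controls (0 of 25 pairs over the 5 genes) or in Q5A (0 of 25), and 4 of 25 did in GFP and 3 of 25 in H3.3. Ordering by mean keeps such neighbours close. Between times that follow each other in the day, the control *Per1* mean went from 9.22 ± 4.15 (SD, n = 13) at ZT8 to 17 ± 5.81 (SD, n = 13) at ZT12, a step larger than either SD.

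**Figure D1:**
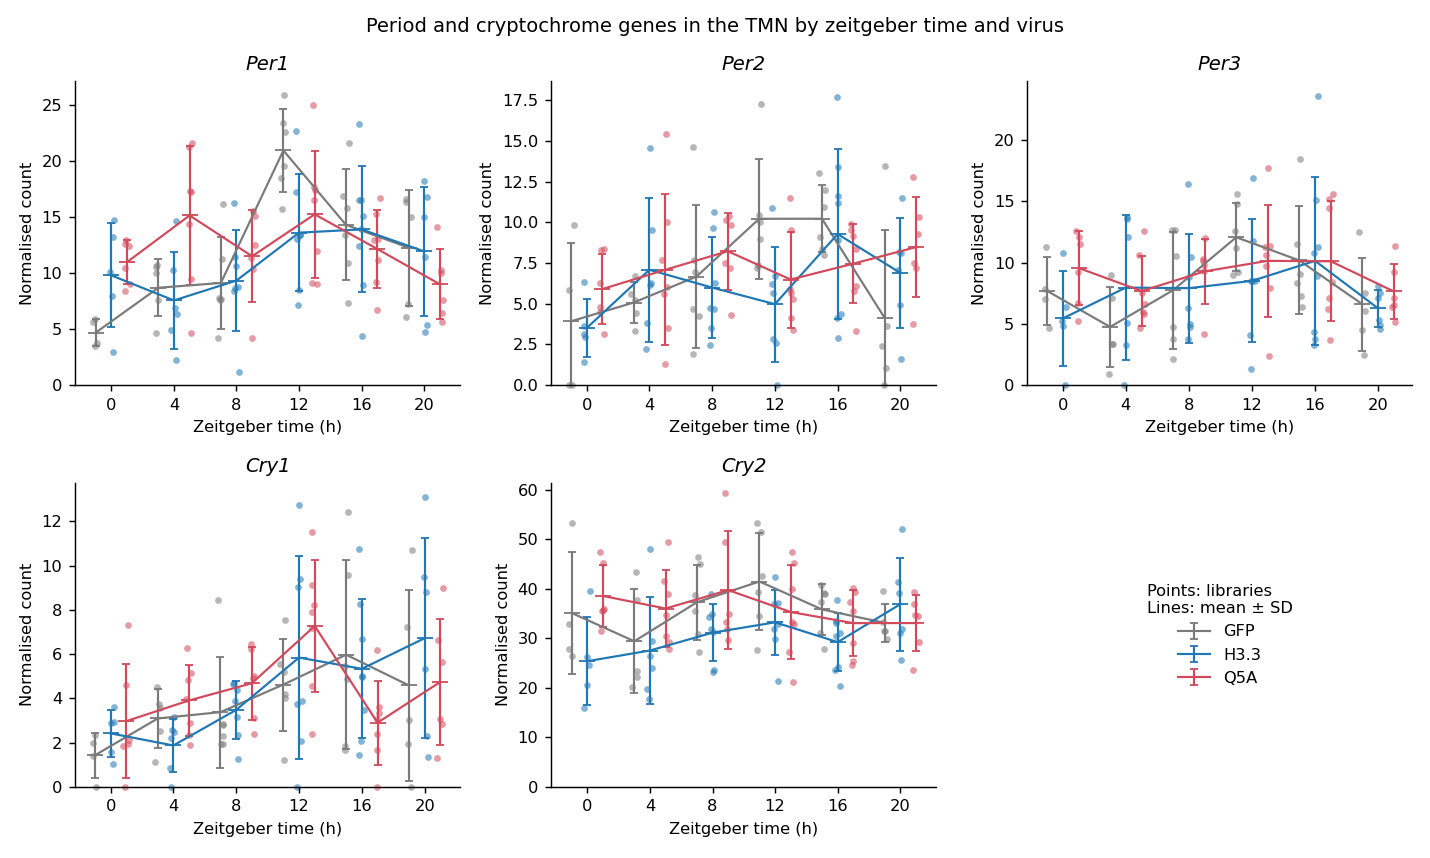
Normalised counts (vertical axes) of the 5 genes against zeitgeber time in h, with 1 point per library and lines through the mean ± SD of GFP (grey), H3.3 (blue) and Q5A (red), set slightly apart at each time. GFP *Per1* at ZT12 lies at 15.7 to 25.9, clear of its ZT0 libraries at 3.49 to 5.87, while the Q5A libraries of all times overlap.

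Rhythm over the day was tested with JTK_CYCLE, a rank test against 24 h and shorter waves whose exact p is adjusted over 20 templates (ADJ.P). In controls *Per1* (exact ADJ.P = 0.00173) and *Cry1* (ADJ.P = 0.0394) were called, both with a 24 h template with its maximum at ZT16, while *Per2* (0.222), *Per3* (0.246) and *Cry2* (0.804) were not. That is 2 of 5 genes, where 13.0% of the 13891 genes tested were called. After adjustment over all genes neither was called (q of 0.0868 for *Per1* and 0.339 for *Cry1*), where 1.08% of genes were. In Q5A the count was 0 of 5, where 2.56% of genes were called, and *Cry1* had the lowest ADJ.P, 0.474. In GFP alone *Per1* (exact ADJ.P = 0.00054) and *Per2* (ADJ.P = 0.0468) were called and *Per3* was at 0.0743, where 7.28% of genes were called. In H3.3 alone no member was called, with *Per1* at 0.139 and *Cry1* at 0.182, where 4.31% of genes were.

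A 24 h cosine wave fitted to the counts with edgeR gave each gene an amplitude, the log2 rise from the daily mean to the peak, and a peak time. In controls *Per1* had an amplitude of 0.59 ± 0.11 (SE) with a peak at 14.4 ± 0.712 h (SE) and an adjusted p of 0.00131. *Cry1* had an amplitude of 0.72 ± 0.17, a peak at 15.5 ± 0.909 h and an adjusted p of 0.0117. These 2 of 5 members passed, where 12.7% of 11897 genes did. *Per2* (0.46 ± 0.16, peak 13.5 ± 1.28 h, adjusted p = 0.0878 in edgeR), *Per3* (0.40 ± 0.14, peak 13.2 ± 1.32 h, adjusted p = 0.0980 in edgeR) and *Cry2* (0.14 ± 0.07, peak 13.6 ± 1.76 h, adjusted p = 0.247 in edgeR) did not pass, and 4 of 5 members had an unadjusted p under 0.05, where 32.3% of genes did. All 5 fitted peaks fell between 13.2 and 15.5 h, early in the dark phase. The median amplitude was 0.46 over the 5 members and 0.19 over all 11897 genes.

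In Q5A none of the 4 members with enough reads passed, where 0.239% of genes did. *Per1* had an amplitude of 0.29 ± 0.13 and a peak at 8.92 ± 1.64 h (edgeR adjusted p = 0.439), *Per3* 0.19 ± 0.13, *Cry2* 0.12 ± 0.08 and *Per2* 0.06 ± 0.15. *Cry1* fell below the minimum count in this fit, and without that filter it had an amplitude of 0.46 ± 0.21 and a peak at 11.2 ± 1.68 h (edgeR adjusted p = 0.478). The median amplitude was 0.16 over the 4 members and 0.17 over all 11706 genes. The control median above was over 5 members, *Cry1* among them, and so over another set of genes.

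Within the controls the waves were higher in GFP than in H3.3 for *Per1*, *Per2*, *Per3* and *Cry2*, without a difference that passed a test. In GFP *Per1* had an amplitude of 0.80 ± 0.15 with a peak at 13.6 ± 0.694 h (edgeR adjusted p = 0.00540), the only 1 of 5 members to pass, where 5.70% of genes did, and *Per2* had 0.76 ± 0.24 (adjusted p = 0.0776). In H3.3 *Per1* had 0.43 ± 0.16 and *Per2* 0.23 ± 0.21, and none of 4 members passed, where 0.783% of genes did. The test of the difference between H3.3 and GFP gave adjusted p = 0.489 for *Per1* and 0.590 for *Per2*, called none of the 5 members, and called 0.0151% of all genes.

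**Figure D2:**
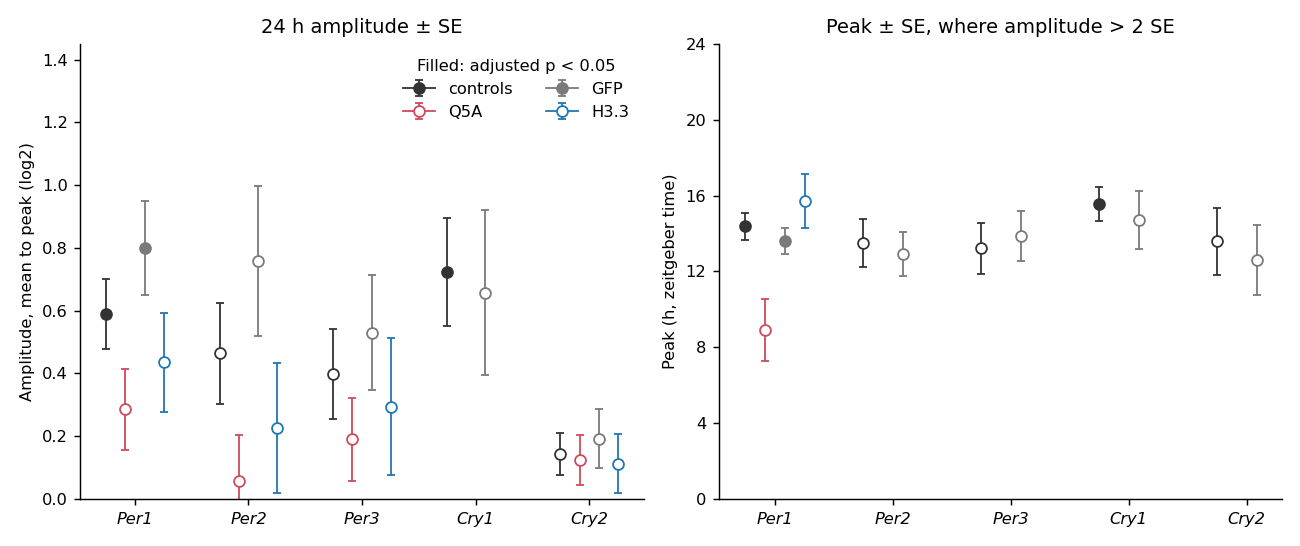
Left, amplitude (log2, mean to peak) and right, peak in h of zeitgeber time, each ± SE, of the 24 h wave fitted per gene in pooled controls (black), Q5A (red), GFP (grey) and H3.3 (blue), with filled circles for an adjusted p under 0.05. Control amplitudes of *Per1* (0.59) and *Cry1* (0.72) are filled, no Q5A circle is, and peaks are drawn only where the amplitude is over 2 SE.

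The difference in rhythm between Q5A and controls was then tested itself, as the change of both wave terms in 1 fit over all 110 libraries. For *Per1* the fitted amplitude differed in Q5A by -0.31 ± 0.17 (SE) on the log2 scale and the fitted peak by -5.55 ± 1.94 h. The edgeR p was 0.00139 before and 0.234 after adjustment over 13254 genes (n = 110). For *Cry1* the amplitude differed by -0.25 ± 0.28 and the peak by -4.40 ± 1.91 h, with p = 0.0438 before and 0.323 after adjustment (n = 110). The Q5A wave of neither gene passed in the fits above, so these peak differences rest in part on waves that were not called. *Per2* (amplitude -0.42 ± 0.23, p = 0.209), *Per3* (-0.22 ± 0.21, p = 0.561) and *Cry2* (-0.02 ± 0.10, p = 0.0873) had larger p-values in edgeR (n = 110). Each p is of both wave terms together and not of the amplitude difference printed beside it. None of the 5 members was called, where 0.106% of genes were, and 2 of 5 had an unadjusted p under 0.05, where 14.9% of genes did. A member that passed in controls and not in Q5A is thus not shown to differ between them. With a single virus as the control, *Per1* gave an adjusted p of 0.216 against GFP and 0.179 against H3.3.

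Levels over the whole day were close in all groups. Q5A minus controls was 0.15 ± 0.12 (log2, SE) for *Per1*, 0.16 ± 0.16 for *Per2*, 0.20 ± 0.15 for *Per3*, 0.14 ± 0.19 for *Cry1* and 0.13 ± 0.07 for *Cry2*. All 5 differences were positive, as were those of 51.8% of 13254 genes, and the 5 members share libraries and are not independent. None passed at an adjusted p under 0.01 (edgeR, 0.839 to 0.902), where 0.0151% of genes did. The median difference was 0.15 over the members and 0.01 over all genes. H3.3 minus GFP ran from -0.21 ± 0.09 for *Cry2* to 0.09 ± 0.24 for *Cry1*, and none of 5 passed, where 0% of genes did (edgeR). *Cry2* had a p of 0.0221 before adjustment and 1 after it, and 3.25% of genes had an unadjusted p under 0.05.

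At single times the *Per1* difference between Q5A and controls passed no test. It was 0.56 ± 0.33 (log2, SE) at ZT0, 0.94 ± 0.32 at ZT4 and 0.36 ± 0.31 at ZT8, followed by -0.13 ± 0.27 (ZT12), -0.20 ± 0.25 (ZT16) and -0.46 ± 0.33 (ZT20). The ZT12 and ZT16 values were smaller than their SEs, and the ZT12 value was 0.020 without replicate 1. The ZT4 difference was the largest, with an edgeR adjusted p of 0.420, and had an unadjusted p under 0.05, where 10.6% of 9673 genes did and 0% were called. Its libraries overlapped, at 2.2 to 14.6 in controls and 4.65 to 21.6 in Q5A. *Cry2* went from 0.38 ± 0.21 at ZT0 and 0.38 ± 0.22 at ZT4 to -0.11 ± 0.19 at ZT20. No member passed at any of the 6 times. The other 3 members had too few reads for this test at some or all times.

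**Figure D3:**
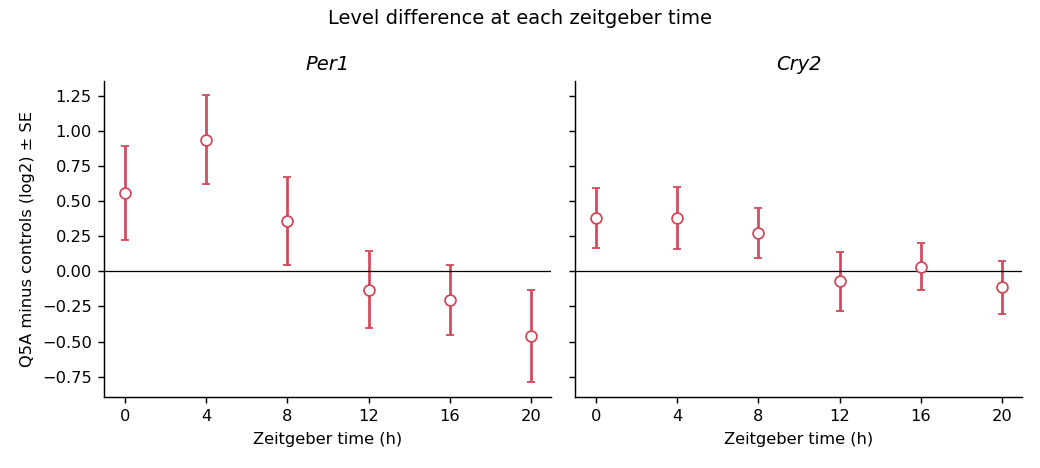
Level of Q5A minus controls (log2, ± SE) against zeitgeber time in h for *Per1* and *Cry2*, the 2 members with enough reads at every time. The *Per1* points go from 0.56 at ZT0 and 0.94 at ZT4 to -0.46 at ZT20, and no single time passed after adjustment over genes.

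Other values moved with time in the same libraries. In controls the summed level of the 4 markers of the suprachiasmatic nucleus (4 of 4 with a row) was lowest at ZT12, 14.8 ± 9.73 (SD, n = 13, range 2.46 to 39.3), when *Per1* was highest, and highest at ZT20, 31.5 ± 16.3 (SD, n = 11, range 8.10 to 57.1). The summed level of 5 histamine neuron markers (5 of 5 with a row) ran from 96.7 ± 18 (SD, n = 13) at ZT8 to 163 ± 81.1 (SD, n = 11) at ZT20, and that of 6 glial markers (6 of 6) from 1207 ± 1042 (SD, n = 13) at ZT8 to 2034 ± 836 (SD, n = 11) at ZT20. In Q5A the means of these 3 lists ran from 17.6 to 26.4, from 109 to 157 and from 1014 to 2248. The summed level of 6 markers of neighbouring hypothalamic cells (6 of 6) was lowest at ZT0, 137 ± 99.4 (SD, n = 9), and highest at ZT16, 272 ± 220 (SD, n = 14), in controls, the times of the lowest and highest *Per2* means. In Q5A it was highest at ZT4, 337 ± 195 (SD, n = 7), and lowest at ZT20, 151 ± 125 (SD, n = 6). The Q5A *Per1* mean was also high at ZT4 and lowest at ZT20, but the Q5A *Per2* mean was highest at ZT20, 8.48, and lowest at ZT0. The control *Per1* mean was highest at ZT12, where this sum was 183 ± 201 (SD, n = 13). Neuronal markers (3 of 3) ran from 412 ± 114 (SD, n = 13) at ZT8 to 712 ± 299 (SD, n = 11) at ZT20 in controls and from 500.2 to 608 in Q5A. Pituitary markers (4 of 4 with a row) ran from 55.5 to 84.3 in controls and from 51.8 to 82.7 in Q5A. *Cga*, *Prl* and *Gh* were at 0 in 106, 104 and 89 libraries, so the pituitary sum rests largely on *Tshb* (median 62.5 reads). The part of tissue makeup in the members' rhythms was not tested, and in bulk tissue fewer cells of a type and less RNA per cell cannot be told apart.

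The cohorts were spread unevenly, with 28 GFP, 24 H3.3 and 26 Q5A libraries in cohort 1, 4, 10 and 10 in cohort 2 and 0, 5 and 3 in cohort 3. Within cohort 1 (52 control libraries) *Per1* had a control amplitude of 0.55 ± 0.14 (edgeR adjusted p = 0.00962), *Per2* 0.64 ± 0.20 (0.0395) and *Per3* 0.54 ± 0.17 (0.0454). These 3 of 4 members tested passed there, where 2053 of 10882 genes did, and *Cry1* had too few reads. By JTK_CYCLE in cohort 1 no member was called in controls, where 1538 of 13891 genes were. *Per1* was at an exact ADJ.P of 0.0603 and *Cry1* at 0.893. In Q5A no member was called in cohort 1 by either test, where the cosine fit called 947 of 11355 genes and JTK_CYCLE 855 of 13891. The rhythm difference for *Per1* in cohort 1 had an edgeR adjusted p of 0.120. Cohorts 2 and 3 had too few libraries at each time for values of their own.

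Without the 4 libraries with a single outlying row, *Per1* (exact ADJ.P = 0.00207) and *Cry1* (0.0295) were called in controls as before, and the GFP call of *Per2* was lost (0.132). The 1 GFP library among them, at ZT12, had a *Per2* value of 17.3, the highest at that time. In the cosine fit without the 4 libraries *Per1* kept its control call (0.55 ± 0.11, edgeR adjusted p = 0.00208), and *Cry1* fell below the minimum count.

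The rest of the clock was described by a list of 22 further clock genes, of which 18 had enough reads for JTK_CYCLE. In controls 8 of 18 were called, where 13.0% of all genes were: *Dbp* (exact ADJ.P = 0.000534), *Clock* (0.000587), *Nr1d1* (0.000779), *Hlf*, *Nr1d2*, *Usp2*, *Tef* and *Csnk1d*. *Dbp*, an output factor that binds D-boxes, had a control amplitude of 0.33 ± 0.07 and a peak at 11.4 h. *Nr1d1*, the repressor REV-ERBα, had 0.22 ± 0.05 and a peak at 7.83 h, and *Hlf*, a relative of *Dbp*, 0.62 ± 0.15 and a peak at 19.4 h. *Clock*, the partner of BMAL1, was called with a 16 h template and had 0.20 ± 0.06. After adjustment over all genes 1 of the 18 was called in controls, *Dbp* (q of 0.0494), with *Clock* at 0.0523 and *Nr1d1* at 0.0591. In Q5A 2 of 18 were called, where 2.56% of all genes were. One was *Dbp* (exact ADJ.P = 0.00503), with an amplitude of 0.34 ± 0.08 and a peak at 10.5 h, and the other was *Npas2* (0.0282), a relative of *Clock*. In Q5A *Clock* was at an ADJ.P of 0.891 and *Nr1d1* and *Hlf* at 1. By the cosine fit 5 of 16 clock genes passed in controls and 0 of 16 in Q5A, and the rhythm difference called 0 of 17.

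**Figure D4:**
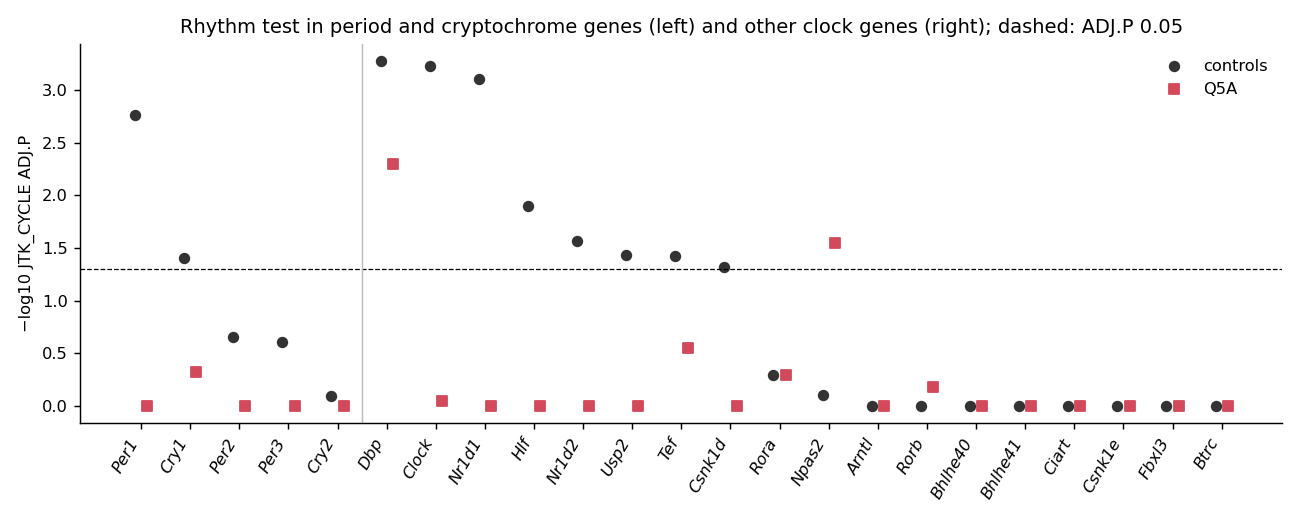
The −log10 of the JTK_CYCLE ADJ.P (vertical axis) for the period and cryptochrome genes on the left and 18 other clock genes on the right, in controls (black circles) and Q5A (red squares), with a dashed line at 0.05. In controls 2 of 5 and 8 of 18 genes lie above the line, in Q5A 0 of 5 and 2 of 18, among them *Dbp* in both sets.

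Across the 18 group means of log2(normalised count + 1) the members varied together to different degrees. Pearson's r was highest for *Per3* with *Cry2* (0.73) and *Per1* with *Cry1* (0.71), and lowest for *Per2* with *Cry2* (0.32), and all 10 pairs were positive. Over the 110 single libraries r ran from 0.10 for *Per3* with *Cry1* to 0.38 for *Per1* with *Per3*. These points share libraries and size factors, and counts are low, so r is a description. Among 9159 genes with a mean of at least 10 normalised counts, those most like each member over the 18 means were *Mt2* (r = 0.85) and *Klhl29* (0.85) for *Per1*, *Ucp2* (0.87) and *Celf4* (0.86) for *Per2*, and *Tnks1bp1* (0.88) for *Per3*. For *Cry1* they were *Dgkb* (0.82) and *Ankrd6* (0.82), and for *Cry2* *Stxbp5* (0.86) and *Shprh* (0.80). No other member or listed clock gene was among those named. *Per2*, *Per3* and *Cry1*, with means of 6.90, 8.46 and 4.29, were below the minimum and could not be named. The absence of members therefore says little about how alike they are.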

How the data were processed

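Polyadenylated RNA was sequenced from stranded ligation libraries. Per the methods and the labels, the authors aligned reads to GRCm38 with STAR 2.7.11b and made the deposited counts with htseq-count (HTSeq 2.0.5), counting exonic reads per gene name with the stranded option set to yes. With that setting a read counts on 1 strand only. The deposited values are whole-number counts, and 5 entries that name no gene were left out. Another 18 files that map to no labelled sample were not used. The pair of Q5A ZT4 libraries that differed by 6 reads was averaged.

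Counts were divided by median-of-ratios size factors for JTK_CYCLE, which was rewritten in Python 3.11.15 (numpy 2.4.6, pandas 2.3.3; periods 8 to 24 h, exact null, tied cosine values kept tied) and run on 13891 genes. All other tests used the quasi-likelihood F test of edgeR 4.0.16 (R 4.3.3, TMM, filterByExpr with a minimum count of 10 and total of 15) with Benjamini-Hochberg adjustment over all genes, at 0.05 for rhythms and 0.01 for levels. DESeq2 1.42.0 was an alternative, and the processing notes name DESeq2 1.44.0. Scripts were tested on simulated data. Members and gene lists were chosen with earlier results of these data known. Named beside the members, by rule, are the 4 clock genes of smallest control ADJ.P, genes overlapping a member on the other strand and, for each member, the 2 genes of highest r, of which 1 is not reported here. The other clock genes that were called were named after their values were seen.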

Additional observations from a re-analysis of the deposited data

Results flagged for a closer look

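In 4 of 90 combinations of gene, virus and ZT, 1 library lay further from the rest than the critical value for a single outlying sample allows, 4.44% of those tested, and chance flags about 1 in 20. *Cry1* in GFP at ZT8 had 8.43 normalised counts (8 reads) in replicate 1 of cohort 2, against 1.92 to 2.83 in the others. *Per2* in GFP at ZT12 had 17.3 (14 reads) in replicate 3 of cohort 1, the library with an outlying RP23-355L10.3 row, against 7.22 to 10.4. *Per2* in GFP at ZT20 had 13.5 (14 reads) in replicate 4 of cohort 1, against 0 to 3.64. *Per3* in Q5A at ZT8 had 4.16 (5 reads) in replicate 3 of cohort 1, against 9.31 to 12.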

How the results depend on the processing

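Of 951 alternatives for single genes, 912 kept their side of the threshold and, for level differences, their direction, while 13 lost a call, 10 gained one and 16 reversed. For rhythm tests direction was not compared, so a moved peak or a changed amplitude was not counted. Of 167 alternatives for counts of called members, 151 stayed within 1.5 times and 16 moved, and the cause was not tested. By JTK_CYCLE the 2 members called in controls became 0 in cohort 1 and 1 to 3 with 1 replicate number left out. The 2 in GFP became 1 in cohort 1, 1 without the 4 libraries that stand apart and 1 to 3 with a replicate number left out, and the 0 in H3.3 became 1 with 24 h templates only and 0 to 1 with a replicate number left out. By the cosine fit the 2 in controls became 1 in cohort 1 with no filter, 1 without the 4 libraries and 1 to 2 with a replicate number left out, and the 1 in GFP became 2 by DESeq2 and 1 to 2 with a replicate number left out. Counts over all genes were less stable: the 28 cosine calls in Q5A ran from 5 to 1729, the 89 in H3.3 from 2 to 1800, the 696 in GFP from 28 to 2175 and the 1513 in controls from 344 to 2192. JTK_CYCLE calls ran from 1012 to 2950 in controls (1804), 180 to 855 in Q5A (355), 522 to 1771 in GFP (1011) and 250 to 1227 in H3.3 (599). The rhythm difference calls ran from 0 to 878 for Q5A (14) and 0 to 378 for H3.3 (2), level calls over all times from 0 to 40 and 0 to 86, and level calls at single times (0) reached 297, 178, 173, 40, 208 and 173 from ZT0 to ZT20, all in cohort 1 with no filter. The adjusted p of the *Per1* rhythm difference ran from 0.120 to 0.740 over 16 alternatives.

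The reversals were all of level differences that had passed no test. For H3.3 minus GFP, *Cry1* was -0.0016 without the 4 libraries, and with 1 replicate number left out *Cry1* ran from -0.079 (without replicate 2) to 0.11, *Per2* from -0.15 to 0.065 (without replicate 4) and *Per3* from -0.082 to 0.018 (without replicate 4). For Q5A minus controls at ZT12, *Cry2* ran from -0.18 to 0.017 and *Per1* from -0.22 to 0.020, both highest without replicate 1, and *Per3* was -0.084 in cohort 1 and -0.062 there with no filter. At ZT16 *Cry2* ran from -0.038 (without replicate 2; -0.0085 without replicate 4) to 0.090, and *Per3* was 0.0035 with no filter, 0.35 in cohort 1, 0.34 there with no filter, 0.16 with the replicate block and -0.25 to 0.22 with a replicate number left out, highest without replicate 4. At ZT20 *Cry2* ran from -0.23 to 0.019, highest without replicate 2.

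Replicate numbers share only a label. The median correlation of deviations was 0.00069 between libraries of the same number and 0.00090 between others, and 17 of 78 libraries of cohort 1 correlated best with their own number. With the replicate block 2 members passed in controls by the cosine fit, as without it, and the block changed no other count of called members. The cohort 1 fit with no filter, the runs without the 4 libraries and the JTK_CYCLE run with ties broken by rounding were chosen after seeing the data. Medians of 4 to 12 reads limit the precision of *Cry1*, *Per1*, *Per2* and *Per3*, and the shares of counting error and of spread between animals in their SEs were not separated.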
